A study of Homo sapiens with 6 samples.

Results

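Metallothioneins, the metal sensor that controls them and the exporter that shares this control were followed as 7 genes chosen by name: MT1E, MT1F, MT1G, MT1X, MT2A, MTF1 and SLC30A1. All 7 were found once each among the 58735 genes of the deposited tables. The cells were A549, an established human lung adenocarcinoma line. One group of 3 libraries is titled Vector, with genotype and treatment given as WT, and the other group of 3 is titled OE_GPX3, with both given as OE. OE_GPX3 stands for raised expression of GPX3, a secreted selenium-containing peroxidase. The labels name no promoter, clone, dose or time for the overexpression, and nothing in them says that replicates were grown separately. The p-values therefore reflect only the spread between these 6 libraries, which may be technical.

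Metallothioneins are small, cysteine-rich proteins that bind zinc, copper and cadmium and buffer free zinc in the cell. Their transcription is driven by MTF1, a zinc-finger factor that senses zinc and binds metal response elements in their promoters. MTF1 also drives SLC30A1, which encodes the plasma membrane zinc exporter ZnT1, so that stored and exported zinc are under one control. Metallothionein transcripts are therefore a common readout of the zinc that a cell senses, and they also respond to glucocorticoids and oxidative stress.

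Totals ran from 15831693 to 18751815 counts per library, of which 97.2% to 97.6% were in protein-coding genes, although the library protocol in the labels describes small RNA. GPX3 itself averaged 36.5 ± 2.91 CPM, which are counts scaled to a library of 1000000, in Vector. In OE_GPX3 it rose 33.8-fold to 1234 ± 178 CPM (mean ± SD of 3 libraries; edgeR adjusted p = 2.0e-27). The comparison over all genes depended on single libraries. With all libraries 38 genes were called, with 657 without OE_GPX3 replicate 1 and 116 without Vector replicate 1. There was 1 without OE_GPX3 replicate 2, and there were 4 without Vector replicate 2. The 8 markers of lung adenocarcinoma epithelium were EPCAM, KRT8, KRT18, KRT19, CDH1 and the enzyme genes ALDH1A1, AKR1B10 and AKR1C1. All 8 had counts, and 0 of the 8 were called in edgeR. Their summed level was 31122 to 33594 CPM in Vector and 35476 to 43169 in OE_GPX3. The 5 fibroblast markers summed to 4.35 to 4.71 CPM in Vector and 3.36 to 7.07 in OE_GPX3, and the 5 leukocyte markers to 12.4 to 16.8 and 16.5 to 17.7. The 4 endothelial markers, with KDR at 0, summed to 0.339 to 0.978 and 0.505 to 0.826 CPM. The sum of the epithelial list, enzyme genes included, did not overlap between groups, and its part in the results was not tested.

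Metal response elements are the sequence through which MTF1 acts, so promoters of genes with and without counts are shown first. RefSeq promoter windows (GRCh38.p14) were matched for 4 of the 7 genes, namely MT1X, MT2A, MTF1 and SLC30A1. Each sequence holds the 250 bases before the annotated start, 5′ to 3′ on the gene's strand, and capitals mark every match to the element's core, TGCACNC or TGCGCNC, on either strand; no other motif was searched, and neighbouring matches may overlap. The window of MT2A lies at chr16:56608334-56608583 and that of MT1X at chr16:56682220-56682469, both on the plus strand. The SLC30A1 window lies at chr1:211579162-211579411 on the minus strand. MT1H, a gene of the same cluster that had no count, is shown for contrast, with its window at chr16:56669564-56669813 on the plus strand. RefSeq starts differ from those of the counted genes given below: the MT2A window lies inside the counted gene, and the MT1X window partly overlaps its own. The SLC30A1 window begins some way before the counted gene.
MT2A: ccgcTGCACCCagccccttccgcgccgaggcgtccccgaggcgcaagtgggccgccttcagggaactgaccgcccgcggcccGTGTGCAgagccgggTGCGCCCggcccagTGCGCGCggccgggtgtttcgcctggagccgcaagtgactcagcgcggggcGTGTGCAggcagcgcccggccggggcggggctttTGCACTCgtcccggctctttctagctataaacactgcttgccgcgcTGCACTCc
MT1X: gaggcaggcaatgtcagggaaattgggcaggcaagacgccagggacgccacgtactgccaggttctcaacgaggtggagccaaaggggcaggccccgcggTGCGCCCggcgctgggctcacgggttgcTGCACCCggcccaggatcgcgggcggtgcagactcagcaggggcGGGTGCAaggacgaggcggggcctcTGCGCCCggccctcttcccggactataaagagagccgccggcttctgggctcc
SLC30A1: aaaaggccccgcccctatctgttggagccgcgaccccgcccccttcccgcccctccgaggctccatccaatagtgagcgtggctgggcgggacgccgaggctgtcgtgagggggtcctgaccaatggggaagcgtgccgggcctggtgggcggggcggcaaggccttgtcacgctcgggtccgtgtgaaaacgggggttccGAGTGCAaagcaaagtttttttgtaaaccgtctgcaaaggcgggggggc
MT1H: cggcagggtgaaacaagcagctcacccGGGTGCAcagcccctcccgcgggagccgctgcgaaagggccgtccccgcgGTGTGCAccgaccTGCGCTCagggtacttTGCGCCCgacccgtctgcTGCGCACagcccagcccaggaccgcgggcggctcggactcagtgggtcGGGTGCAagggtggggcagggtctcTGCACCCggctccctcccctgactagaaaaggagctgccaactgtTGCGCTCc
MT2A had 7 matches, between 8 and 246 bases before the start, and MT1X had 4, between 53 and 150 bases before it. SLC30A1 had 1 match and MTF1 had 0. Over all 35116 windows of this length 24.8% held at least 1 match, 1.58% at least 3, 0.37% as many as MT1X and 0.0313% as many as MT2A. MT1H, without a count, had 8 matches, as many as in 0.0171% of windows. MT1B of the same cluster, with 1 count over all libraries, had 3. Among these metallothioneins the gene without a count thus had the most matches, while MT2A, MT1X and MT1B ran in the order of their counts. These windows are rich in G and C, at 73.2% for MT2A and 70% for MT1X against a median of 58% over all windows. Of the 16148 windows with at least 60% G and C, 37.7% held a match. A match is a description of letters and not a measured binding site.

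MT2A carried most of the metallothionein signal, and most of the cluster had few counts or none. The deposited table lists 21 metallothionein genes and pseudogenes, 12 protein coding and 9 pseudogenes, of which 16 lie on chromosome 16 within 119.1 kb. Of the 21, 10 had no count in any library, 8 had at most 7 counts in a library, and MT2A, MT1X and MT1F had enough counts to be tested. Of all metallothionein counts, MT2A held 83%, 85.7% and 82% in Vector replicates 1 to 3. In OE_GPX3 its shares were 80.6%, 80% and 82%. The group means were 83.5% ± 1.92 and 80.9% ± 0.999 (SD, n = 3). The closest libraries of the 2 groups both rounded to 82%. These were Vector replicate 3 (624 of 761 counts) and OE_GPX3 replicate 3 (700 of 854), with the Vector share slightly the higher before rounding. The 95% Wilson intervals of the libraries, which cover counting error only, ran from 77.2% at the lowest to 87.9% at the highest. Those of Vector replicate 2 (83.1% to 87.9%) and OE_GPX3 replicate 2 (77.2% to 82.5%) did not overlap. All other pairs of libraries from the 2 groups overlapped.

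MT1E and MT1G, both inducible metallothioneins of the cluster, were at 0 counts in all 6 libraries. MT1E (ENSG00000169715) lies on chromosome 16 from 56625475 to 56627112 on the plus strand (hg38), and MT1G (ENSG00000125144) from 56666731 to 56668065 on the minus strand. A count of 0 allows up to 3 counts per library, which is 0.145 to 0.186 FPKM, the authors' level per gene length and library size, for MT1E and 0.203 to 0.261 FPKM for MT1G. The coding genes MT1H, MT1M and MT4 also had no count, and MT1B, MT3 and MT1HL1 had 1 count each over all libraries. MT1A and the pseudogene MT1DP had 1 to 6 per library, too few for the test of counts. MT1DP, a short gene, entered only the FPKM test described below, at a log2 fold change of -0.02 (limma adjusted p = 0.977).

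**Figure D1:**
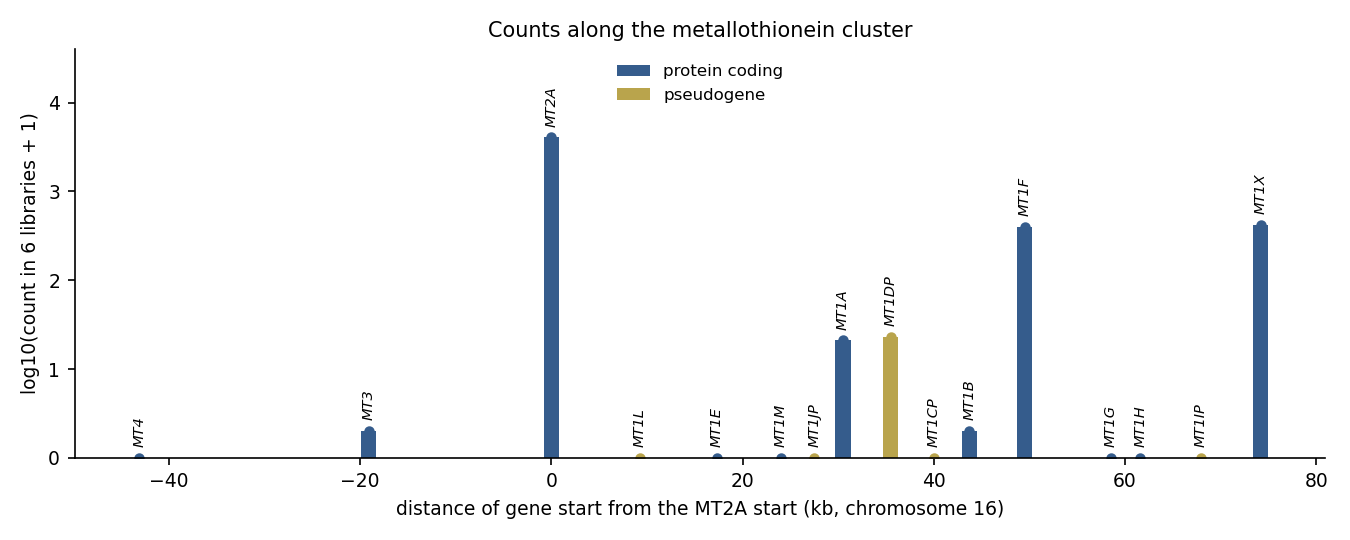
Counts along the metallothionein cluster of chromosome 16. The horizontal axis gives each gene's start relative to the start of MT2A in kb, and the vertical axis gives log10 of the count summed over 6 libraries plus 1, with coding genes in blue and pseudogenes in yellow. MT2A, MT1F and MT1X stand out at 0, 49.5 and 74.2 kb, while MT1E at 17.3 kb and MT1G at 58.5 kb lie at 0.

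Near-identical copies can share reads, and the authors' handling of reads that match several copies was not found in the labels. Over their coding sequences the 5 metallothionein members were 88.5% (MT1X and MT1F) to 95.1% (MT2A and MT1G) identical. In the principal transcript of MT1E 97.9% of all stretches of 50 bases occurred in no annotated transcript of another gene, and in that of MT1G 89.4% did. The shares were 97.7% for MT2A, 98% for MT1F and 87.5% for MT1X, and all stretches of 100 bases were found in 1 gene alone for each of these 5. Read length was not found there either, and unannotated genome sequence was not searched. MT1X and MTF1 each overlap a further annotated gene, AC026461.1 and AL929472.4, and both of those were at 0 counts in all libraries.

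MT2A was the most abundant of the 7 genes per length, and MTF1 the least abundant of those with counts. In Vector the deposited FPKM, a level per gene length, were 28.7 ± 0.914 for MT2A, 5.56 ± 0.310 for SLC30A1, 1.87 ± 0.485 for MT1X, 1.78 ± 0.136 for MT1F and 1.27 ± 0.148 for MTF1 (SD, n = 3 each). MT2A ranked 1442 among 16495 protein-coding genes with a count, above 91.3% of them, and SLC30A1 ranked 5370. In each library MT2A was 4.85 to 6.93 times as high as SLC30A1 in FPKM and 10.7 to 21 times as high as MT1X. By this gene length MT1X and MT1F did not differ beyond their spread in Vector, with ratios between 0.790 and 1.47 over the 6 libraries. MTF1 and MT1X were close in Vector replicate 2, at a ratio of 0.996, and MT1X was 1.5 times or more as high as MTF1 in the other libraries.

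Gene length moves these levels, because the length used for each gene is the union of all annotated exons. That length is 1299 bases for MT2A, 1889 for MT1F and 1773 for MT1X, whereas their principal transcripts hold 786, 690 and 450 bases in 3 exons. Per length of the principal transcript the Vector levels were 47.5 ± 1.51 for MT2A, 7.37 ± 1.91 for MT1X and 4.87 ± 0.373 for MT1F (SD, n = 3 each). SLC30A1 stayed at 5.56 ± 0.310 FPKM and MTF1 at 1.27 ± 0.149. On that scale MT1X stood above SLC30A1 in Vector by less than its own SD, and MT1F below SLC30A1 by more than either SD. In OE_GPX3 the levels were 10.7 ± 2 for MT1X, 6.16 ± 0.51 for MT1F and 5.12 ± 0.573 for SLC30A1 (SD, n = 3), so that both metallothioneins stood above the exporter by more than either SD. The order of MT1F and SLC30A1 thus differed between the groups. MT1X stood above MT1F by more than either SD in both groups, and both stayed above MTF1.

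Whether the metallothionein axis differed with GPX3 overexpression was asked in the fit over all 14458 tested genes. In RNA from bulk cells, fewer cells with a transcript and less of it per cell cannot be told apart. The 5 tested members gave 0 calls at an adjusted p under 0.05 in edgeR's quasi-likelihood test, where 0.263% of all genes were called (0.0968% higher and 0.166% lower). At an unadjusted p under 0.05 there were 2 of the 5 (MT1X and MTF1), against 14.6% of all genes. The groups did not overlap in CPM for 2 of the 5 (MT1F and MTF1), against 18.5% of all genes. DESeq2 called 0 of the 3 members it gave an adjusted p, where 1.2% of genes were called. Of the 5, 2 had an unadjusted p under 0.05 in DESeq2, against 1844 of all 14458 genes. Limma on log2(FPKM + 1) also called 0 of 5, with 2 at an unadjusted p under 0.05 (MT1X and MT1F), against 0.037% of genes called and 14.1% at an unadjusted p under 0.05. The 3 metallothioneins had fold changes above 0 and the exporter and the sensor below 0, with a median log2 fold change of 0.12 over the 5 and of -0.02 over all tested genes.

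MT2A (ENSG00000125148, chromosome 16, 56608199 to 56609497, plus strand), the main metallothionein of most human cells, had 686, 707 and 624 counts in Vector and 648, 697 and 700 in OE_GPX3. These are 38.7, 36.4 and 38.1 CPM in Vector and 36.3, 41.1 and 45.4 CPM in OE_GPX3. OE_GPX3 replicate 1 was the lowest of all 6 libraries and OE_GPX3 replicate 3 the highest, so the groups overlapped. The log2 fold change was 0.12 (95% interval -0.12 to 0.36, edgeR adjusted p = 0.653), a ratio of 1.08 between 0.920 and 1.28. It was 0.20 without OE_GPX3 replicate 1, 0.05 without OE_GPX3 replicate 3 and 0.03 after a correction for GC content.

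MT1X (ENSG00000187193, chromosome 16, 56682424 to 56684196, plus strand), an isoform known to respond strongly to zinc and cadmium, had 66, 46 and 65 counts in Vector and 68, 89 and 83 in OE_GPX3. In CPM these are 3.72, 2.37 and 3.97 against 3.81, 5.25 and 5.38. OE_GPX3 replicates 2 and 3 stood above every Vector library, while OE_GPX3 replicate 1 lay between Vector replicates 1 and 3. The log2 fold change was 0.53 (95% interval 0.06 to 0.99, unadjusted p = 0.0282, edgeR adjusted p = 0.292). Vector replicate 2 was the lowest library, and without it the value was 0.32 (edgeR adjusted p = 0.768). Over the alternatives the adjusted p ranged from 0.0769 to 0.768.

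MT1F (ENSG00000198417, chromosome 16, 56657694 to 56660698, plus strand), a further metal-binding isoform, had 59, 62 and 60 counts in Vector and 76, 78 and 60 in OE_GPX3. In CPM these are 3.33, 3.19 and 3.67 against 4.26, 4.6 and 3.89. The groups did not overlap, and Vector replicate 3 and OE_GPX3 replicate 3 were the closest pair. The log2 fold change was 0.33 (95% interval -0.11 to 0.77, edgeR adjusted p = 0.488). With a mean of 65.8 counts per library, counting error alone is 12.3% of the level, which is larger than the spread seen within Vector (7.25%) and within OE_GPX3 (8.37%).

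**Figure D2:**
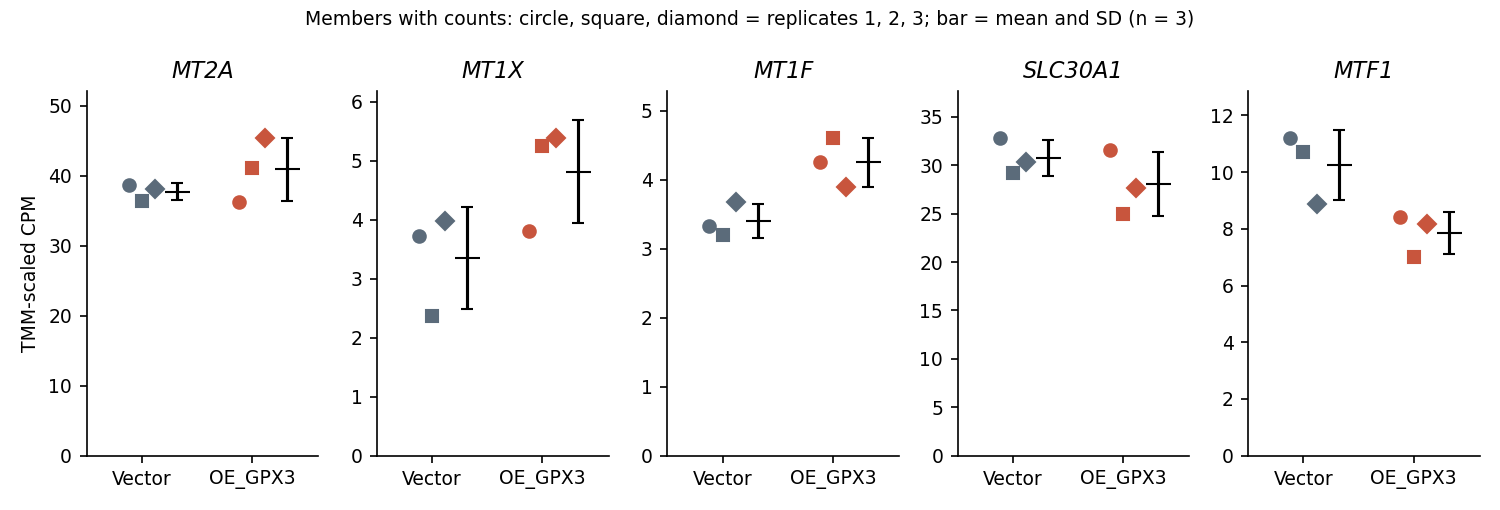
TMM-scaled CPM of the 5 genes with counts in each library, with Vector in grey and OE_GPX3 in red. Circles, squares and diamonds are replicates 1, 2 and 3, bars give the mean and SD (n = 3), and each axis starts at 0. The groups do not overlap for MT1F and MTF1 and overlap for MT2A, MT1X and SLC30A1.

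All 21 metallothionein genes and pseudogenes were also summed into 1 feature, in which a read counted for the wrong copy still counts. Reads that were dropped or counted more than once are not corrected by this. The sum was 46.7, 42.4 and 46.5 CPM in Vector and 45.1, 51.4 and 55.4 CPM in OE_GPX3. OE_GPX3 replicate 1 again lay among the Vector libraries. Vector averaged 45.2 ± 2.41 and OE_GPX3 50.6 ± 5.2 CPM (SD, n = 3), a log2 fold change of 0.16 (95% interval -0.07 to 0.39, edgeR adjusted p = 0.515).

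SLC30A1 (ENSG00000170385, chromosome 1, 211571568 to 211578742, minus strand), the exporter that lowers cytosolic zinc, had 581, 568 and 496 counts in Vector and 563, 424 and 426 in OE_GPX3. In CPM these are 32.8, 29.2 and 30.3 against 31.6, 25 and 27.6. OE_GPX3 replicates 2 and 3 were the lowest of the 6 libraries, and OE_GPX3 replicate 1 was second only to Vector replicate 1. The log2 fold change was -0.13 (95% interval -0.38 to 0.12, edgeR adjusted p = 0.634). After the GC correction it was 0.07, so its sign depended on that choice. Leaving out 1 library gave -0.22 (without OE_GPX3 replicate 1) to -0.05 (without OE_GPX3 replicate 2), and -0.08 without Vector replicate 1.

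MTF1 (ENSG00000188786, chromosome 1, 37809567 to 37859620, minus strand), the zinc sensor, had 199, 209 and 145 counts in Vector and 150, 119 and 126 in OE_GPX3. In CPM these are 11.2, 10.7 and 8.86 against 8.41, 7.02 and 8.17. All OE_GPX3 libraries stood below all Vector libraries, with Vector replicate 3 and OE_GPX3 replicate 1 the closest pair. The log2 fold change was -0.39 (95% interval -0.72 to -0.05, unadjusted p = 0.0251, edgeR adjusted p = 0.284), which is 1.31-fold lower. Over the alternatives it lay between -0.47 and -0.30, and the adjusted p between 0.158 and 0.730.

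The deposited FPKM gave the same signs on the log2(FPKM + 1) scale. The log2 fold changes in limma were 0.38 for MT1X, 0.23 for MT1F, 0.12 for MT2A, -0.10 for SLC30A1 and -0.19 for MTF1, with adjusted p from 0.312 (MT1X) to 0.616 (SLC30A1). MT1F passed an unadjusted p of 0.05 there and not in edgeR, and MTF1 in edgeR and not there, with unadjusted p of 0.0414 and 0.0926 in limma.

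**Figure D3:**
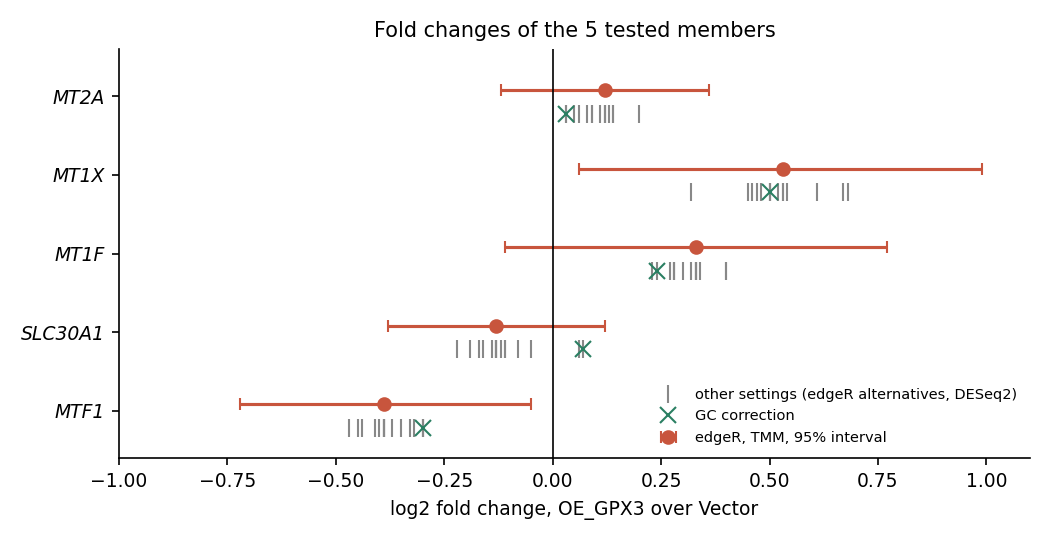
Log2 fold changes of the 5 tested genes, OE_GPX3 over Vector. Red points and bars are edgeR estimates with 95% intervals, grey ticks are the values under the other settings and green crosses those after the GC correction. The intervals of MT1X (0.06 to 0.99) and MTF1 (-0.72 to -0.05) lie on one side of 0 before adjustment, and SLC30A1 crosses 0 with the GC correction.

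The rest of the zinc transport system gave no call in edgeR. Most SLC30 transporters move zinc out of the cytosol, to the outside or into organelles, and SLC39 transporters move it in. Of the 9 further SLC30 genes 6 were tested, 0 were called in edgeR or in DESeq2, and 1 had an unadjusted p under 0.05 in each. Over all tested genes edgeR called 0.263% and DESeq2 1.2%. An unadjusted p under 0.05 was reached by 14.6% of all genes in edgeR and by 1844 of 14458 in DESeq2. The median log2 fold change of the 6 SLC30 genes was -0.17, with 5 below 0. SLC30A3 averaged 9.83 ± 1.48 CPM for Vector and 12.7 ± 0.493 for OE_GPX3 (SD, n = 3), with no overlap, and its log2 fold change was 0.37 (edgeR adjusted p = 0.277). SLC30A9 and SLC30A5, transporters of intracellular membranes, had -0.27 and -0.18, and after the GC correction -0.09 and -0.01. Without OE_GPX3 replicate 3 these were -0.14 and -0.09. SLC30A8 had no count.

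Of 14 SLC39 genes 11 were tested and 0 were called in edgeR, where 0.263% of all genes were called. At an unadjusted p under 0.05 there were 4, 3 of them above 0, against 14.6% of all genes. The median over the 11 was 0.01. SLC39A7, which releases zinc from the endoplasmic reticulum, came nearest: it was at 105.0, 99.2 and 118.2 CPM in Vector and 144.8, 144.4 and 136.2 in OE_GPX3. The groups did not overlap. The log2 fold change was 0.40 (95% interval 0.19 to 0.61, edgeR adjusted p = 0.0754). DESeq2 called SLC39A7 higher (adjusted p = 0.018). This was its 1 call among the 10 genes of this list given an adjusted p, against 1.2% of all genes. Without OE_GPX3 replicate 1, where 657 of 14707 genes were called, edgeR called it too (adjusted p = 0.0172). Without Vector replicate 2 its adjusted p was 0.663. The plasma membrane importers SLC39A6 and SLC39A3 had log2 fold changes of -0.27 and 0.26 (edgeR adjusted p = 0.290 and 0.310), and after the GC correction of -0.14 and 0.12. SLC39A10, a zinc importer that MTF1 is known to repress, averaged 60.3 ± 7.11 CPM for Vector and 54.1 ± 12.4 for OE_GPX3 (SD, n = 3). Its log2 fold change was -0.15 (edgeR adjusted p = 0.600).

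**Figure D4:**
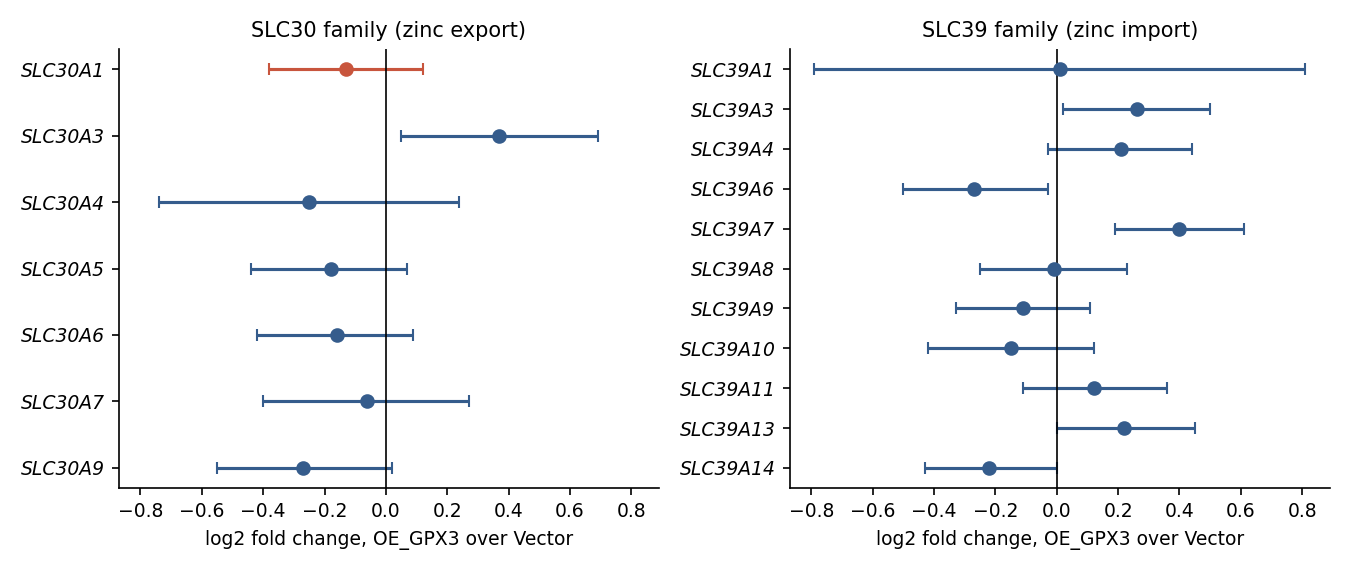
Log2 fold changes with 95% intervals of the tested zinc transporters, OE_GPX3 over Vector, with SLC30 genes on the left (SLC30A1 in red) and SLC39 genes on the right. SLC39A7 at 0.40 has the interval farthest from 0, and no gene shown was called in edgeR.

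Other metals and the other known inducers of metallothioneins were read from 4 further lists. Over all tested genes edgeR called 0.263% and had 14.6% at an unadjusted p under 0.05, and DESeq2 called 1.2%. Of 10 tested copper-handling genes 0 were called in edgeR or DESeq2, with 1 at an unadjusted p under 0.05 and a median of 0.01. That 1 was CCS, the copper chaperone of superoxide dismutase, at 0.31 (edgeR adjusted p = 0.225), while the copper exporter gene ATP7A had -0.21 and the mitochondrial copper chaperone gene COX11 -0.12. Of 8 tested manganese-handling genes 0 were called and 0 had an unadjusted p under 0.05 in edgeR or in DESeq2, with SLC39A14, an importer of manganese and zinc, at -0.22 and SLC11A2 and ATP2C1 at -0.16 and -0.14. The median was -0.04. The GC correction moved CCS to 0.18, ATP7A to -0.02 and SLC11A2 to -0.06, and turned COX11 and ATP2C1 to 0.02 and 0.04. Leaving out 1 library moved SLC39A14 to -0.13 (without Vector replicate 2) and COX11 to -0.07 (without OE_GPX3 replicate 3). SLC11A2 and ATP2C1 went to -0.28 and -0.25 without OE_GPX3 replicate 1, and to -0.10 and -0.05 without OE_GPX3 replicate 3.

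Of 9 tested genes that metals induce as a stress response, edgeR called 0, against 0.263% of all genes. At an unadjusted p under 0.05 there were 3, against 14.6% of all genes, and the median was -0.05. SLC7A11, the cystine transporter that feeds glutathione synthesis, had -0.43 (edgeR adjusted p = 0.0691). It was the 1 call of DESeq2 (adjusted p = 0.0322) among the 8 genes given an adjusted p, against 1.2% of all genes. Without OE_GPX3 replicate 1, where 657 of 14707 genes were called, edgeR called it lower as well (-0.37, adjusted p = 0.0371). Without Vector replicate 2 its adjusted p was 0.619, and the GC correction gave -0.22 (adjusted p = 0.447). HSPA1B, a stress-induced HSP70 gene, had 0.80 (edgeR adjusted p = 0.292), and its reads are uncertain because HSPA1A is a near-identical copy. It was called higher in edgeR without Vector replicate 1 (adjusted p = 4.3e-09), a fit that called 116 of 14727 genes. It was also called higher without OE_GPX3 replicate 1 (0.57, adjusted p = 0.00647). It was not called without any of the other 4 libraries, where the adjusted p ran from 0.326 to 0.619, or with the GC correction (adjusted p = 0.603). SRXN1, which repairs oxidised peroxiredoxins, had 0.28, and 0.12 without Vector replicate 2. The heme oxygenase HMOX1, a classical cadmium-induced gene, averaged 91.6 ± 5.59 CPM for Vector and 88.2 ± 2.29 for OE_GPX3 (SD, n = 3), and its log2 fold change was -0.05.

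Of 9 tested glucocorticoid-induced genes 0 were called in edgeR or DESeq2, where 0.263% and 1.2% of all genes were called. At an unadjusted p under 0.05 there were 4, 3 of them below 0, against 14.6% of all genes in edgeR. The median was -0.18. ERRFI1 and KLF9 had log2 fold changes of -0.39 and -0.49 and CEBPD 0.41 (edgeR adjusted p = 0.118, 0.125 and 0.120). Without OE_GPX3 replicate 1, where 657 of 14707 genes were called, edgeR called ERRFI1 (-0.44, adjusted p = 0.00469) and KLF9 (-0.60, adjusted p = 0.0100) lower. Without Vector replicate 2 they had -0.26 and -0.39 (adjusted p = 0.696 and 0.695). CEBPD was at 0.19 with the GC correction (adjusted p = 0.621). The remaining gene of those 4, TSC22D3, had -0.54, the value farthest from 0 in this list (edgeR adjusted p = 0.160). Its groups overlapped, from 26.9 to 49.2 CPM in Vector and 22.8 to 27.8 in OE_GPX3. The groups did not overlap in CPM for 5 of the 9 genes, against 18.5% of all genes. The receptor cochaperone FKBP5 had -0.12. In all, 7 of the 9 genes lay below 0, as did 7601 of all 14458 tested genes.

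Neighbours of the cluster were read in the same fit. The 5 nearest tested coding genes on each side of the MT2A to MT1X interval were taken. In edgeR 0 of 10 were called and 1 had an unadjusted p under 0.05, against 0.263% and 14.6% of all genes. Of these 10 genes 5 were above 0 and 5 below, with log2 fold changes between -0.28 and 0.55. Before the cluster BBS2 had -0.21, and after it HERPUD1, a gene of endoplasmic reticulum stress, had -0.28 (edgeR adjusted p = 0.464 and 0.277). BBS2 had -0.07 after the GC correction and between -0.32 and -0.10 with 1 library left out, and HERPUD1 -0.15 without Vector replicate 2.

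The genes most like each member were taken as those with the smallest root mean square difference of log2 CPM, each centred over the 6 libraries. For MT2A these were ST5, DPYSL5 and NOL3, at 0.014, 0.021 and 0.027 against a median of 0.18 over 9980 genes. For MTF1 they were SASH1, SIPA1L2 and CSNK1G1, at 0.027, 0.029 and 0.032 against a median of 0.26. For SLC30A1 they were RTN4, CEP44 and SLC6A15, at 0.027, 0.028 and 0.029 against a median of 0.19. For MT1X they were PAGR1 at 0.10 and TMEM121 and PFKFB4 at 0.12 each, against a median of 0.38 over 9981 genes. The smallest of so many distances lie below the median by selection, so the medians only give a scale. Counting error is 12% for MT1X and 3.84% for MT2A, and its part in the larger distances of MT1X was not tested. None of these 12 genes is a metallothionein, but candidates averaging under 5 CPM were left out of the search. MT1X averaged 3.35 CPM in Vector and 4.82 in OE_GPX3, and MT1F 3.4 and 4.25, so neither could be listed. Among the metallothioneins only MT2A was high enough, and it was not among the closest genes of MT1X. For MT2A itself the search cannot show whether other metallothioneins vary with it. MT1E, with no count, has no pattern. Neighbours of MT1F and MT1G were not looked for.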

How the data were processed

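RNA sequencing counts of 6 A549 libraries were compared, 3 titled Vector and 3 titled OE_GPX3. The authors deposited whole-number counts per gene, and the submitters' processing notes name hg38 as the genome build. Which aligner and counter made them, in which versions and with what use of strand, was not given in the sources used here. All 58735 gene positions equal those of GENCODE release 29. In the deposited FPKM each count is divided by gene length and by a library constant that differed from the total count by -4.52% to 4.90%, a scaling by the authors whose method was not found. No column of other samples was present.

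In edgeR 4.0.16 low genes were dropped by filterByExpr (minimum count 10), TMM factors were computed and groups were compared by the two-sided quasi-likelihood test with Benjamini-Hochberg adjustment over 14458 genes, at an adjusted p under 0.05. CPM are scaled by TMM. DESeq2 1.42.0 was an alternative, and FPKM were tested with limma 3.58.1 on log2(FPKM + 1), keeping genes whose mean reached 1; this scale makes the changes of low genes look smaller. GC content came from GENCODE transcripts.

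The genes and lists were chosen with earlier results of these data known. Named are the 7 members, GPX3 and the 3 genes of smallest p in each other list. So are the flanking gene of smallest p on each side and the 3 genes of most similar pattern (mean of at least 5 CPM). The epithelial markers are named as well. SLC39A10, HMOX1, FKBP5, TSC22D3, SLC30A8, HSPA1A and the other metallothioneins were named after their values were seen. Leaving out each library, scaling, filters, GC and length corrections and the replicate number as a block were tried.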

Additional observations from a re-analysis of the deposited data

How the results depend on the processing

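Of the 5 tested members 0 were called under each of the 16 alternatives to the count fit and each of the 9 to the FPKM fit. DESeq2 gave no adjusted p to MT1X and MT1F, and summing the metallothioneins leaves MT1F, MT1X and MT2A without values of their own. MT1F, MT1X, MT2A and MTF1 kept their sign in all alternatives that gave a value. SLC30A1 reversed to 0.07 with the GC correction and to 0.06 with the replicate block and GC correction. COX11 reversed to 0.02 and 0.02, and ATP2C1 to 0.04 and 0.03, in the same 2 fits. The GC correction also brought MT2A and 10 of the other named genes nearer to 0 by over 1.5 times without a change of sign; the cause was not tested.

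The number of genes called, 38, was 68 with total counts alone, 129 with no filter, 231 with the replicate block, 4 with the GC correction, 69 with the length correction and 116 with DESeq2. Leaving out 1 library gave 1 (without OE_GPX3 replicate 2) to 657 (without OE_GPX3 replicate 1). Of 38 calls 36.8% were higher, against 19.1% when scaled by total counts, 26.9% by upper quartiles, 55.1% with the length correction and 58.6% with DESeq2. Scaling by total counts moved the median of all genes from -0.02 to -0.08. In FPKM 4 genes were called, 1 with no filter, and 1 to 11 without 1 library. Whether the replicate numbers pair the samples was not settled. Deviations of same-numbered libraries correlated at 0.246, 0.0196 and 0.154, and those of unlike numbers at -0.194 to 0.0606. Vector replicate 2 was slightly closer to OE_GPX3 replicate 3 (0.0384) than to its own number. The replicate block called SLC39A7 (adjusted p = 0.0300), SLC7A11 (0.0324) and HSPA1B (0.00452), and no member. With the GC correction added to the block, HSPA1B was called (0.00630) and SLC39A7 and SLC7A11 were not (0.0821 and 0.282). With no filter SLC7A11 (0.0396), HSPA1B (8.0e-06) and CEBPD (0.0497) were called, and with total counts alone SLC7A11 (0.0280). By length of the principal transcript the Vector means were 47.5 FPKM for MT2A, 7.37 for MT1X and 4.87 for MT1F. At 65.8 and 69.5 counts per library, counting error is 12.3% for MT1F and 12% for MT1X, against 3.84% for MT2A, so small changes in the first pair are not detectable at this depth.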
